A study of Homo sapiens with 36 samples.

Results

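The 10 genes described here encode enzymes of glycerolipid and phospholipid synthesis: GPAM, AGPAT2, AGPAT3, LPIN1, LPIN2, CHKA, PCYT1A, PCYT2, PEMT and LPCAT3. They were taken by gene symbol from a count table of 18932 RefSeq genes, and all 10 were found and passed the filter on low counts at both times. RNA-seq was performed on HepG2 cells, an established human hepatoma line, in 36 samples. The supplements included 50 µM docosahexaenoic acid (DHA, a long-chain polyunsaturated fatty acid of fish oil) and 70 µM propionate (PRO, a short-chain fatty acid). Protocatechuic acid (PCA, a phenolic acid) was given at 20 µM. Groups received DHA, PRO, PCA, DHA + PRO, DHA + PCA or no supplement (Ctrl) in serum-free medium for 6 h or 24 h. DHA was complexed to bovine serum albumin (BSA), and the Ctrl medium contained BSA and the solvents (ethanol, dimethyl sulfoxide) alone. Whether the medium with PRO alone or PCA alone also contained BSA is not stated. Each of the 12 groups had 3 samples, and each sample was a pool of 3 culture replicates of 1 experiment. In such bulk samples, fewer cells of a type and less RNA per cell cannot be told apart.

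Glycerolipids are built on glycerol phosphate. GPAM, the mitochondrial glycerol phosphate acyltransferase, adds the first acyl chain, acyltransferases of the AGPAT family add the next and so make phosphatidate, and lipins (LPIN1, LPIN2) remove its phosphate to give diacylglycerol, the precursor of both triglycerides and the main phospholipids. In the Kennedy pathway, choline kinase (CHKA) and PCYT1A, which transfers the cytidyl group, supply CDP-choline, and PCYT2 likewise supplies CDP-ethanolamine. Outside that pathway, PEMT methylates phosphatidylethanolamine to phosphatidylcholine in liver, and LPCAT3 returns polyunsaturated chains to lysophospholipids.

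LPIN1 was the member that changed with DHA. At 24 h its level was lower in every sample with DHA than in every sample without, by 31.7% on average, while its paralogue LPIN2 did not pass the test. A smaller decrease of LPCAT3 at 24 h missed the threshold under the main test and passed it with the replicate number as a block. The other 8 members were not called in any comparison of treatments. With PRO or PCA alone none of the 10 genes was called. Between 6 h and 24 h of culture without DHA, 6 of the 10 changed, with PCYT2 rising most.

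The promoter windows of LPIN1 and LPCAT3 are shown because these 2 genes had the largest decreases with DHA. The windows come from RefSeq on GRCh38.p14, run from 250 bases before to 50 bases after an annotated start, and are written 5′ to 3′ on the gene's strand. Capitals mark CCAAT or, where it lies on the other strand, its complement.
LPIN1 window 1, chr2:11677294-11677593, plus strand: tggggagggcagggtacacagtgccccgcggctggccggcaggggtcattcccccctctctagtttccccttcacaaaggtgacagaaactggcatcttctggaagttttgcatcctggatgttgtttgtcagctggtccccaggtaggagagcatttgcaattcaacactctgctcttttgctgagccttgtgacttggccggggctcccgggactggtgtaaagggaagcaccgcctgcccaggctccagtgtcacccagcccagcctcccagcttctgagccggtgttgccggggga
LPIN1 window 2, chr2:11724065-11724364, plus strand: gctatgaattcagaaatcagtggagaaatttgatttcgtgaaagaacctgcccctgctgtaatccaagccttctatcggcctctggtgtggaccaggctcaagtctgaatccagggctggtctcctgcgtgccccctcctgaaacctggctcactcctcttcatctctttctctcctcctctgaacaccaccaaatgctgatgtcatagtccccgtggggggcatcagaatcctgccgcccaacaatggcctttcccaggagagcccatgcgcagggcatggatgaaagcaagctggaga
LPIN1 window 3, chr2:11746382-11746681, plus strand: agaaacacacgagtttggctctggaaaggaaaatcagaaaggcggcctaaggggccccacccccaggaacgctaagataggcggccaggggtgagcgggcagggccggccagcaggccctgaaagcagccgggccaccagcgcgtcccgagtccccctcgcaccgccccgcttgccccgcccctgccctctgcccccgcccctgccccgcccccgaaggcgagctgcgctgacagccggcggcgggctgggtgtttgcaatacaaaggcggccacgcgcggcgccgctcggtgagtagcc
LPCAT3 window 1, chr12:7018427-7018726, minus strand: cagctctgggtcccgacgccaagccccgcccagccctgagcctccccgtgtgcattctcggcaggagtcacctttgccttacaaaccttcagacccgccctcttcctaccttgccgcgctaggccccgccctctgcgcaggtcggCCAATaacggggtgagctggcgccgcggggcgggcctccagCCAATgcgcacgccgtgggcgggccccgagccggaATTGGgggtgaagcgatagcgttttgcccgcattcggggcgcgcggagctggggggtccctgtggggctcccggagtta

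Windows were found for 9 of the 10 genes, 16 windows in all, and CHKA had no entry. Motifs were searched on both strands, 5 in all: TCACNCCAC (sterol regulatory element), CCAAT (the NF-Y box), CACGTG (E-box), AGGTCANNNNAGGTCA (DR4 pair of nuclear receptor half-sites) and AGGTCANAGGTCA (DR1 pair). None of the 5 was found in the 3 LPIN1 windows. The LPCAT3 window held CCAAT at 105 and 64 bases before the start on the gene's strand and at 29 bases before it on the other strand. Windows of PCYT2, AGPAT3 and GPAM also held CCAAT, which makes 4 of 16, against 34.61% of all 35116 promoters of this length. CACGTG was found in 2 of 16 windows, 1 each of LPIN2 and PEMT, against 7.256% of all promoters. TCACNCCAC (1.128% of all promoters), the DR4 pair (0.01993%) and the DR1 pair (0.02278%) were in none of the 16. No match of 1 motif overlapped a match of another. A match describes letters only, and a miss covers only these exact letters within these windows, so sites with other letters were not searched. The windows were not aligned to the hg19 positions of the counted transcripts.

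Total counts per sample ran from 4659744 to 42326734 (median 7034010), and 1 library, DHA + PRO 24 h replicate 2, exceeded the median depth of the remaining 24 h libraries 6.22-fold. Over the 36 samples LPIN1 received 175 to 1601 reads, LPCAT3 490 to 4132 and PCYT2 1410 to 15148, while AGPAT2 received only 15 to 259 and was the least precisely measured member. All 10 hepatocyte and hepatoma markers listed (such as ALB, AFP and HNF4A) were above 1 CPM (counts scaled by the library size) in every sample. Of 8 markers of other cell types, 4 (PTPRC, PECAM1, DES and KRT7) stayed below 1 CPM, and CD68 was the one above 1 CPM in every sample. With DHA at 24 h, 1 of the 10 hepatocyte markers, TF (transferrin), was called, at -0.20 (SE 0.048, edgeR adjusted p = 0.0317), when 0.942% of all genes were called lower. The log2 fold change was negative for 8 of the 10 and positive for 2. By edgeR 4 of the 10 had an unadjusted p below 0.05, as had 1175 of all 11893 genes. The summed level of the 10 was 62570 to 71826 CPM (median 63886) with DHA and 63033 to 71184 CPM (median 67742) without. At 24 h the summed level of the 8 other markers was 47.9 to 60.1 CPM without DHA and 46.2 to 62.0 CPM with DHA, none was called with DHA, and their part in the results was not tested.

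At 24 h, levels per length (RPKM, CPM per kilobase of counted transcript) in Ctrl cells were highest for PCYT2 with 124 ± 7.21 (SD, n = 3), followed by CHKA with 62.6 ± 3.16, LPCAT3 with 46.3 ± 2.35 and GPAM with 32.3 ± 1.29. PEMT (26.9 ± 3.22) came next, then PCYT1A (16.97 ± 3.12) and AGPAT3 (16.9 ± 0.395), whose samples overlapped each other. LPIN2 (14.5 ± 1.37) exceeded LPIN1 (11.6 ± 1.12) in every Ctrl sample at 24 h, and AGPAT2 was lowest with 3.58 ± 0.843 RPKM. At 6 h the order was the same at both ends, but PCYT2 (73.6 ± 7.17 RPKM) and CHKA (70.7 ± 4.56 RPKM) overlapped. AGPAT3, PCYT1A and PEMT, at 17.4 to 18.8 RPKM on average, overlapped each other at 6 h.

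**Figure D1:**
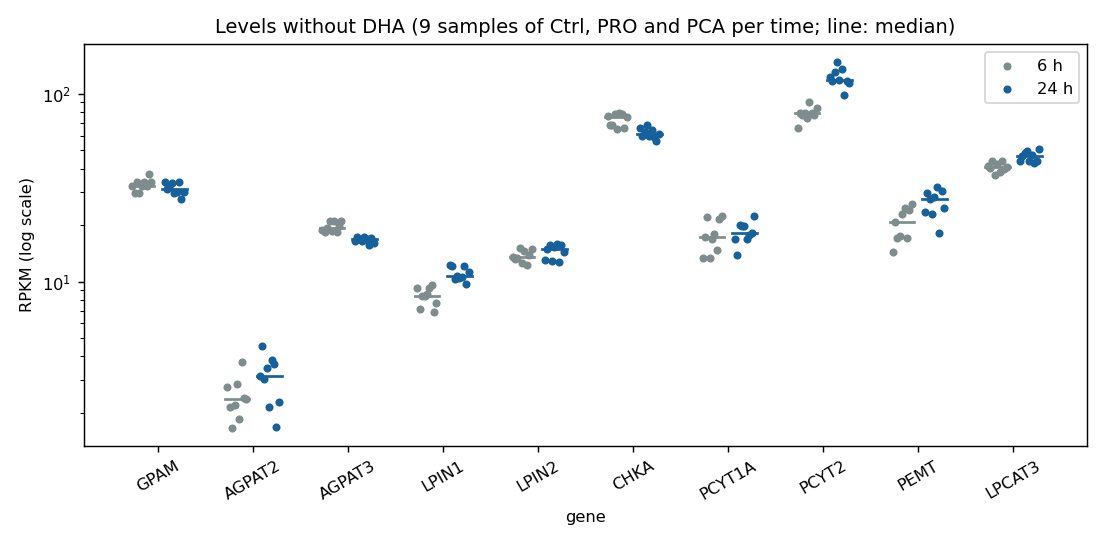
Level of each gene per length (RPKM, logarithmic axis) in the 9 samples without DHA (Ctrl, PRO and PCA) at 6 h and at 24 h. Each point is a sample and the line is the median. PCYT2 and CHKA lie highest, AGPAT2 lies lowest, and PCYT2 and LPIN1 are higher in all 9 samples of 24 h than in all 9 of 6 h.

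The first question was whether DHA, alone or on top of PRO or PCA, altered the expression of these genes. The pooled DHA effect is the mean of 3 differences (DHA against Ctrl, DHA + PRO against PRO, DHA + PCA against PCA), with 9 samples on each side. A gene was called at a Benjamini-Hochberg adjusted p of at most 0.05 in edgeR's quasi-likelihood test over all genes tested, with an average log2 CPM above 0. At 24 h, 1 of the 10 members was called, LPIN1, and it was lower, while 0.942% of the 11893 genes tested were called lower and 0.286% higher. The median log2 fold change was -0.048 over the 10 members and 0.0070 over all genes.

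LPIN1 (NM_001261428, chr2:11817705-11967533, plus strand, hg19) encodes lipin 1, a phosphatidate phosphatase that also acts as a transcriptional coactivator in liver. At 24 h the Ctrl samples had 69.1, 68.0 and 57.7 CPM, PRO samples 68.3, 54.7 and 63.0 CPM, and PCA samples 59.9, 59.0 and 59.2 CPM. With DHA the values were 48.5, 52.4 and 39.3 CPM, with DHA + PRO 40.6, 38.3 and 45.6 CPM, and with DHA + PCA 37.7, 42.7 and 38.1 CPM. All 9 samples with DHA (37.7 to 52.4 CPM) therefore lay below all 9 without it (54.7 to 69.1 CPM). Such a separation in the lower direction was seen for 0.311% of genes tested. The pooled log2 fold change at 24 h was -0.55 (SE 0.067, 95% interval -0.69 to -0.41, edgeR adjusted p = 1.48e-05). It stayed between -0.58 and -0.52 when each of the 18 samples of 24 h was left out in turn, and was called each time. The library numbers in the labels fall into 2 series, and the labels do not say what sets these apart. The log2 ratio of mean LPIN1 levels with and without DHA was -0.54 in the lower-numbered series (6 samples on each side) and -0.55 in the higher-numbered series (3 on each side), and the samples did not overlap in either.

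The 3 treatments with DHA were also compared singly with Ctrl at 24 h, sharing the same 3 Ctrl samples. For LPIN1, DHA + PCA gave -0.71 (SE 0.12, edgeR adjusted p = 0.00253), a decrease of 39.1%. DHA + PRO gave -0.66 (SE 0.12, edgeR adjusted p = 0.00493), a decrease of 36.5%. DHA alone gave -0.47 (SE 0.12), and although its 3 samples lay below the 3 Ctrl samples, which held for 6.11% of all genes, its edgeR adjusted p was 0.145 and it was not called. LPIN1 was thus the 1 member called of 10 with DHA + PCA (0.286% of all genes called) and with DHA + PRO (0.395%), and none was called with DHA alone (0.193%), where 2 members had an unadjusted p below 0.05 and the DESeq2 Wald test called LPIN1. A fit with the replicate number as a block also called LPIN1 with DHA alone (edgeR adjusted p = 0.0446). The call for DHA + PRO depended on single libraries: without Ctrl replicate 2 the edgeR adjusted p of LPIN1 was 0.0502, and without the deep library, DHA + PRO replicate 2, it was 0.0805.

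The lower mean of LPIN1 with the co-treatments than with DHA alone was not called. For LPIN1 at 24 h, adding PRO to DHA gave -0.19 (95% interval -0.43 to 0.055) and adding PCA to DHA gave -0.24 (95% interval -0.49 to 0.0029), with edgeR unadjusted p of 0.125 and 0.0525. No member was called in either comparison, where 0% of all genes were called by edgeR, and none of the 10 had an unadjusted p below 0.05. With the replicate number as a block, 2 members with PRO added and 1 with PCA added had an edgeR unadjusted p below 0.05. Of all 11893 genes, 912 and 503 had such a p there. For PRO added to DHA, the block fit called 1 gene and the DESeq2 Wald test 11, none of them a member. At 6 h the same 2 comparisons called no member and 0% of all genes by edgeR, and again none of the 10 had an unadjusted p below 0.05. Under the block at 6 h, 1 member with PRO added had such a p by edgeR, as had 448 of all 11872 genes.

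**Figure D2:**
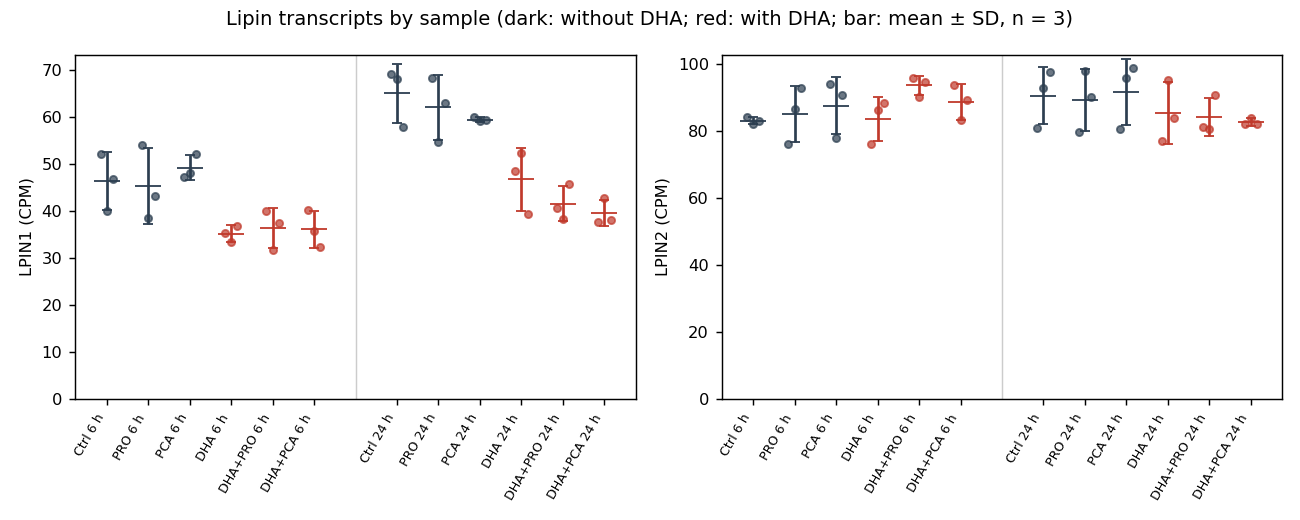
CPM of LPIN1 (left) and LPIN2 (right) in each of the 36 samples, by group and time; dark points are samples without DHA, red points samples with DHA, and the bar is the mean ± SD of 3 samples. At 24 h the 9 red points of LPIN1 lie between 37.7 and 52.4 CPM, below all dark points. Those of LPIN2 overlap the dark ones, with 1 red point below all dark points.

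At 6 h the same direction was seen for LPIN1. Ctrl samples had 52.1, 40.0 and 46.9 CPM, PRO samples 54.1, 38.5 and 43.2 CPM, and PCA samples 47.3, 48.1 and 52.2 CPM. Samples with DHA had 35.3, 33.3 and 36.8 CPM, those with DHA + PRO 40.0, 31.7 and 37.5 CPM, and those with DHA + PCA 40.2, 35.8 and 32.4 CPM. All 9 samples with DHA were below the median without DHA (47.3 CPM), and 7 of 9 were below the lowest sample without DHA.

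The pooled log2 fold change of LPIN1 at 6 h was -0.39 (SE 0.081, 95% interval -0.56 to -0.22), with an edgeR adjusted p of 0.0506, so it missed the threshold. No member was called in the pooled DHA effect at 6 h, where 0.202% of the 11872 genes tested were called. LPIN1 alone of the 10 had an unadjusted p below 0.05 there, and the DESeq2 Wald test called it. With the replicate number as a block LPIN1 was also called at 6 h (edgeR adjusted p = 0.00204). DHA, DHA + PRO and DHA + PCA against Ctrl at 6 h gave -0.40, -0.36 and -0.36 for LPIN1, none of them called. In each of these 3 comparisons 0.0168% of all genes were called by edgeR, LPIN1 was the member with an unadjusted p below 0.05, and neither edgeR nor the DESeq2 Wald test called a member.

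The change of the pooled DHA effect from 6 h to 24 h was tested directly. For LPIN1 it was -0.16 (SE 0.11, 95% interval -0.38 to 0.052, edgeR unadjusted p = 0.131). None of the 10 members and 0% of the 12046 genes in the joint fit of both times were called for such a change by edgeR, and none of the members had an unadjusted p below 0.05. With the replicate number as a block, edgeR called 20 of the 12046 genes, none of them a member. In that fit 2 members had an unadjusted p below 0.05, as had 784 of all genes.

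LPIN2 (NM_014646, chr18:2916992-3011945, minus strand, hg19), the other lipin listed, was not called at either time. At 24 h its 9 samples without DHA ran from 79.6 to 98.8 CPM (median 92.9) and its 9 samples with DHA from 76.9 to 95.2 CPM (median 82.1), so the ranges overlapped. Of the 9 samples with DHA, 1 was below the lowest without it and 8 were below the median without it. Its pooled log2 fold change was -0.11 at 24 h (95% interval -0.23 to 0.022) and 0.047 at 6 h (95% interval -0.080 to 0.17).

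The ratio of LPIN1 to LPIN2 counts within each library, chosen after its values were seen, is given as a description with no test. At 24 h the ratio was 0.559 to 0.858 (median 0.699) without DHA and 0.460 to 0.631 (median 0.500) with DHA. At 6 h it was 0.445 to 0.710 (median 0.565) without DHA and 0.352 to 0.465 (median 0.416) with DHA. At each time 8 of the 9 samples with DHA were below all 9 without it. The log2 difference, averaged over the 3 pairs of groups, was -0.45 at 24 h and -0.44 at 6 h.

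LPCAT3 (NM_005768, chr12:7085347-7125842, minus strand, hg19), the lysophospholipid acyltransferase, had the next largest decrease with DHA at 24 h. Ctrl samples had 100.4, 107.6 and 111.0 CPM, PRO samples 98.2, 101.2 and 116.4 CPM, and PCA samples 114.7, 100.9 and 108.1 CPM. Samples with DHA had 85.7, 88.1 and 91.2 CPM, those with DHA + PRO 93.5, 98.9 and 104.5 CPM, and those with DHA + PCA 89.6, 82.7 and 97.0 CPM. The ranges overlapped through DHA + PRO: 7 of the 9 samples with DHA were below the lowest without it, and all 9 were below the median without it (107.6 CPM).

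The pooled log2 fold change of LPCAT3 at 24 h was -0.21 (SE 0.053, 95% interval -0.32 to -0.096), with an edgeR adjusted p of 0.0546, so it missed the threshold. When each of the 18 samples was left out in turn it was called in 2 fits, without PRO replicate 1 or DHA + PCA replicate 3 (edgeR adjusted p = 0.0223 and 0.0449), and the remaining fits reached 0.141, without PRO replicate 3. With all 18 samples and the replicate number as a block, LPCAT3 was called (edgeR adjusted p = 0.00867). Singly against Ctrl at 24 h, DHA gave -0.27, DHA + PCA -0.24 and DHA + PRO -0.11, none called. Within the lower-numbered and the higher-numbered libraries the log2 ratio of mean LPCAT3 levels was -0.21 and -0.20. At 6 h the pooled value of LPCAT3 was -0.064 (95% interval -0.20 to 0.067), and 7 of the 9 samples with DHA were below the median without it.

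**Figure D3:**
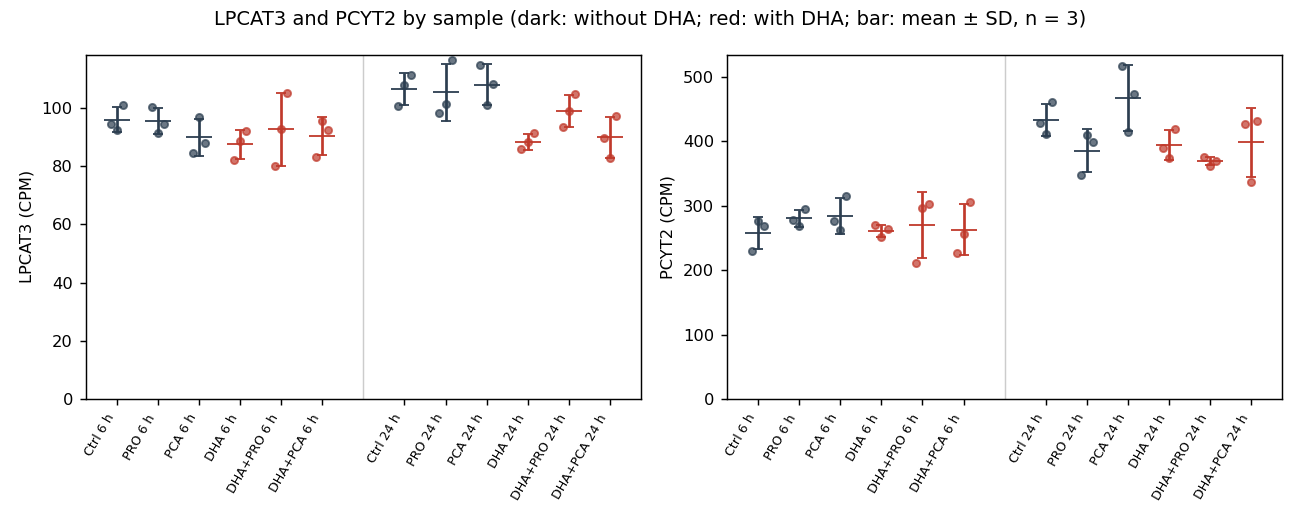
CPM of LPCAT3 (left) and PCYT2 (right) in each of the 36 samples, by group and time; dark points are samples without DHA, red points samples with DHA, and the bar is the mean ± SD of 3 samples. LPCAT3 with DHA lies at 82.7 to 104.5 CPM at 24 h, against 98.2 to 116.4 CPM without, and PCYT2 is higher at 24 h than at 6 h in every group.

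Among the Kennedy pathway genes, PCYT2 (NM_001256435, chr17:79860777-79869353, minus strand, hg19) had a pooled log2 fold change of -0.14 at 24 h (SE 0.058, 95% interval -0.26 to -0.023), with an edgeR adjusted p of 0.358. Its 9 samples without DHA ran from 347.3 to 516.3 CPM (median 413.8) and its 9 samples with DHA from 336.8 to 431.7 CPM (median 375.1), and only 1 sample with DHA was below the lowest without. CHKA (NM_212469, chr11:67820326-67888858, minus strand, hg19) gave 0.026 at 24 h (95% interval -0.073 to 0.12) and -0.0079 at 6 h (95% interval -0.14 to 0.12). These intervals bound a change of CHKA with DHA to within 0.14 on the log2 scale at both times.

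PCYT1A (NM_005017, chr3:195965253-196014584, minus strand, hg19) gave -0.071 at 24 h (95% interval -0.24 to 0.095) and 0.096 at 6 h (95% interval -0.12 to 0.31). PEMT (NM_148172, chr17:17408877-17495017, minus strand, hg19) gave 0.074 at 24 h (95% interval -0.14 to 0.28) and 0.17 at 6 h (95% interval -0.087 to 0.43). At 6 h every treated group of PEMT had a higher mean than Ctrl, with log2 fold changes of 0.32 to 0.42. Those samples shared the 3 Ctrl samples (14.6, 21.1 and 17.4 CPM), and PEMT was called in none of the 5 comparisons.

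Among the acyltransferases of the first steps, GPAM (NM_020918, chr10:113909622-113943537, minus strand, hg19) gave 0.028 at 24 h (95% interval -0.073 to 0.13) and 0.041 at 6 h (95% interval -0.074 to 0.16). AGPAT3 (NM_020132, chr21:45285116-45407475, plus strand, hg19) gave -0.025 at 24 h (95% interval -0.14 to 0.090) and 0.077 at 6 h (95% interval -0.034 to 0.19). For AGPAT2 (NM_006412, chr9:139567595-139581911, minus strand, hg19) the depth left wide intervals. Its pooled value was 0.29 at 24 h (95% interval -0.079 to 0.66) and -0.048 at 6 h (95% interval -0.40 to 0.30), so a change of that size was not detectable.

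**Figure D4:**
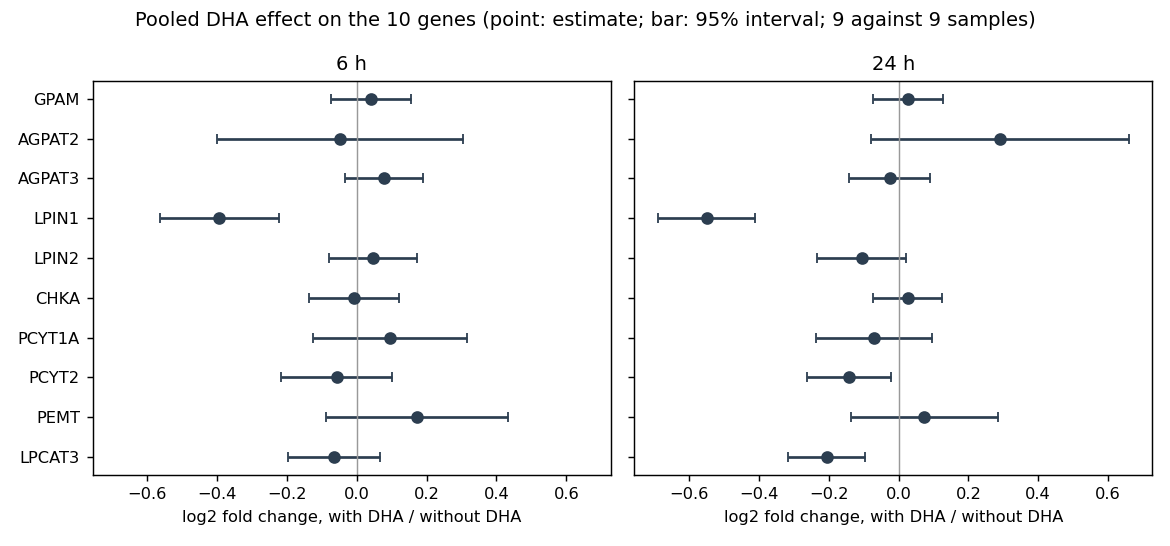
Pooled DHA effect on each gene at 6 h (left) and 24 h (right), as log2 fold change with its 95% interval, from 9 samples with DHA and 9 without. LPIN1 lies at -0.39 and -0.55, the intervals of LPCAT3 and PCYT2 lie below 0 only at 24 h, and the other 7 intervals include 0 at both times.

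The second question was whether PRO or PCA acted on these genes. Against Ctrl, 0 of the 10 members were called with PRO and 0 with PCA, at 6 h and at 24 h, by edgeR and by the DESeq2 Wald test, and none had an unadjusted p below 0.05. Over all genes 0% were called by edgeR in each of these 4 comparisons. With PRO at 24 h, edgeR without the filter on low counts called 10 genes and the DESeq2 Wald test 1, none of them a member. With the replicate number as a block, 1 member each had an edgeR unadjusted p below 0.05 with PRO at 24 h, PRO at 6 h and PCA at 6 h. Over all genes, 1181 of 11893, 563 of 11872 and 217 of 11872 had such a p there. For LPIN1 at 24 h, PRO gave -0.069 (95% interval -0.31 to 0.17) and PCA -0.12 (95% interval -0.36 to 0.12). These intervals do not reach the pooled value with DHA. Samples of PCYT2 did not overlap between PRO and Ctrl at 24 h, 1 member of 10 when this held for 8.5% of all genes. No member was without overlap with PCA at 24 h, PRO at 6 h or PCA at 6 h, when this held for 10.2%, 7.23% and 4.81% of all genes. PCYT2 had 347.3, 410.0 and 399.7 CPM with PRO at 24 h and 428.3, 411.1 and 460.8 CPM in Ctrl, a log2 fold change of -0.18 (SE 0.10, edgeR adjusted p = 0.839).

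**Figure D5:**
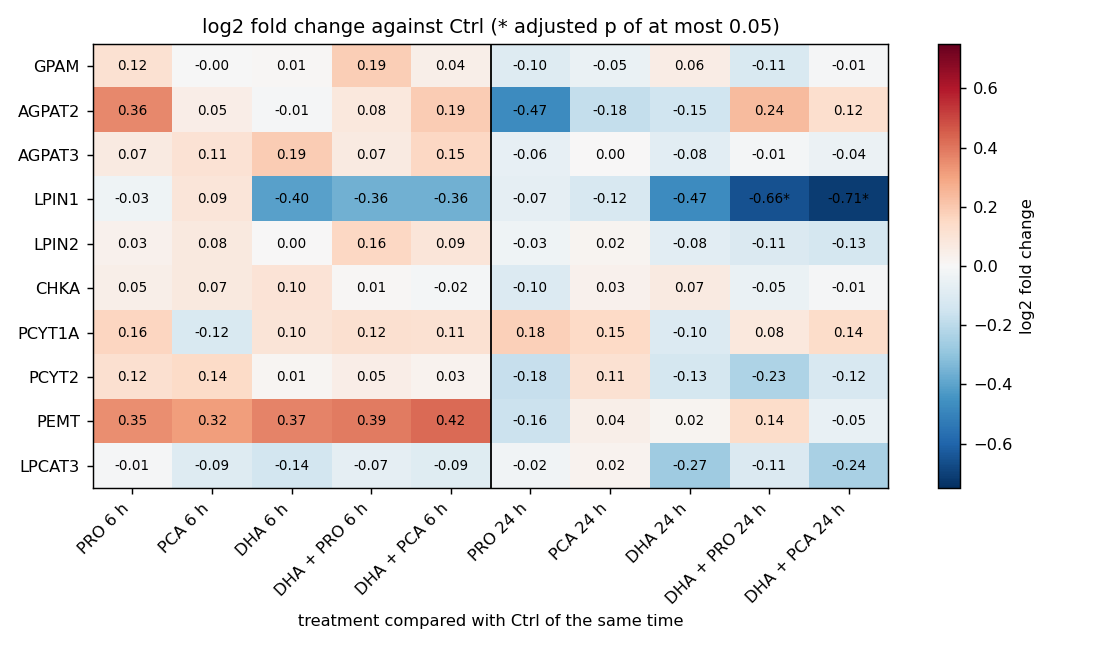
Log2 fold change of each gene (rows) in each treatment against Ctrl of the same time (columns, 3 samples against 3); the numbers are the values, red is higher and blue lower than Ctrl, and an asterisk marks a called change. Only LPIN1 with DHA + PRO (-0.66) and DHA + PCA (-0.71) at 24 h carries an asterisk, and the columns of each time share their 3 Ctrl samples.

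The third question was how the genes changed with time in culture without DHA, comparing the 9 samples of Ctrl, PRO and PCA at 24 h with the 9 at 6 h. Of the 10 members 6 were called, 4 higher and 2 lower, when 48.4% of all 12046 genes were called (24.3% higher and 24.1% lower). The count is therefore near the background. PCYT2 rose most, from 229.2 to 315.5 CPM (median 275.7) at 6 h to 347.3 to 516.3 CPM (median 413.8) at 24 h. These samples did not overlap, and 6.77% of all 12046 genes were likewise higher without overlap. The log2 fold change of PCYT2 was 0.64 (SE 0.069, edgeR adjusted p = 2.08e-09).

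LPIN1 also rose without overlap, from a median of 47.3 CPM at 6 h to 59.9 CPM at 24 h (log2 fold change 0.40, SE 0.074, edgeR adjusted p = 3.05e-05). Its median with DHA at 24 h (40.6 CPM) was below its median without DHA at 6 h. PEMT rose by 0.37 (SE 0.12, edgeR adjusted p = 0.0104) and LPCAT3 by 0.19 (SE 0.055, edgeR adjusted p = 0.00594) on the log2 scale, both with overlapping samples. AGPAT3 fell by 0.23 (SE 0.053, edgeR adjusted p = 4.78e-04) and CHKA fell by 0.24 (SE 0.054, edgeR adjusted p = 4.91e-04). The AGPAT3 samples did not overlap, and 4.51% of all 12046 genes were likewise lower without overlap. GPAM, AGPAT2, LPIN2 and PCYT1A were not called.

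The other genes of the pathway were described in the same way from a list of 35, of which 31 passed the filter. None was called in the pooled DHA effect at 24 h or at 6 h by the edgeR fit described above, where 6 and 1 of them had an unadjusted p below 0.05. Over all genes, 1175 of 11893 at 24 h and 342 of 11872 at 6 h had such a p. The DESeq2 Wald test called 2 of them higher at 24 h and 1 higher at 6 h, so the count of 0 depends on the test. Over all genes the DESeq2 Wald test called 66 higher at 24 h and 15 higher at 6 h. Their median log2 fold change was 0.011 at 24 h, against 0.0070 over all genes. The nearest to the threshold were GPD1, which makes glycerol phosphate, at 24 h (0.25, SE 0.064, edgeR adjusted p = 0.0505), DGAT1, which makes triglyceride from diacylglycerol, at 24 h (0.29, SE 0.081, edgeR adjusted p = 0.0859), and LPCAT1, another lysophosphatidylcholine acyltransferase, at 6 h (0.25, SE 0.055, edgeR adjusted p = 0.0669). These 3 had positive values and were named after their values were seen. With time in culture without DHA, 6 of the 31 were called higher and 13 lower, when 24.3% of all 12046 genes were called higher and 24.1% lower.

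Of 9 listed regulators of lipid genes, SREBF1, which encodes the lipogenic factor SREBP-1, was called lower in the pooled DHA effect at both times. At 24 h SREBF1 ran from 117.4 to 198.3 CPM (median 148.2) without DHA and from 69.3 to 116.9 CPM (median 94.4) with DHA. Its log2 fold change was -0.68 at 24 h (SE 0.093, edgeR adjusted p = 7.15e-05) and -0.63 at 6 h (SE 0.077, edgeR adjusted p = 1.83e-04). SREBF2, which encodes the sterol-responsive factor SREBP-2, gave -0.23 at 24 h (SE 0.057, edgeR adjusted p = 0.0478) and -0.15 at 6 h (SE 0.075), the latter not called. The other 7 regulators, among them NR1H3, PPARA and MLXIPL, were not called at either time, and whether any regulator bears on the decrease of LPIN1 was not tested.

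Likeness to LPIN1 was measured as the Pearson correlation of log2 CPM over the 36 samples, each gene centred within time and replicate number. The 5 genes most like it included CYP51A1 (r = 0.902), TMEM97 (r = 0.902), HMGCS1 (r = 0.901) and FDFT1 (r = 0.890). The 36 points share their libraries and the treatments, so these values describe the data set only. Among the 10 members themselves, the 45 pairs had a median r of 0.011 and ranged from -0.39 to 0.60, the highest being LPIN1 with LPCAT3, and this was the 1 pair above 0.5.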

How the data were processed

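RNA-seq was performed on 36 samples of HepG2 cells, 3 in each of 12 groups, as labelled, and all entered the fits. The deposited values are raw counts per RefSeq gene: the authors prepared libraries with a TruSeq kit that does not mark strand, aligned reads to hg19 with STAR and counted them with the iRNA-seq pipeline, without normalization. The deposited table also gives coordinates and, as another unit, the counted transcript length used here for RPKM. Its starts count from 0, and 1 was added. PCYT2 shares 5 bases of its span with NPB on the opposite strand, and no other member overlaps a listed gene.

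Differential expression was tested with edgeR 4.0.16 in R 4.3.3 (filterByExpr, TMM, quasi-likelihood F test, Benjamini-Hochberg over all genes tested), in 1 fit of the 18 samples of each time and a joint fit of 36 for contrasts between times. The SE is the log2 fold change divided by the root of F. CPM and RPKM use TMM sizes over all 36 samples. The method was tested on simulated data. No pair among 630 pairs of libraries was a duplicate (lowest chi-square per degree of freedom 1.93). Samples of a group are separate experiments, so p-values measure the spread between them. The main fits did not pair samples by replicate number, and the values under the block apply if a number marks a shared culture. Intervals cover the model's error, and reads carry no molecular identifiers.

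Alternatives were DESeq2 1.42.0 (size factors and Wald test), no filter, a replicate block, the 2 series of library numbers as a factor, a thinned deep library, fits restricted to the compared groups, and omission of each sample in turn. Named genes were all members, pathway genes and regulators called in the pooled DHA effect, SREBF1, SREBF2 and the 5 genes most like a called member, 1 of which is not reported here. The members and lists were chosen with earlier results of these data known. Plots were made in Python 3.11.15 (matplotlib 3.10.9).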

Additional observations from a re-analysis of the deposited data

How the results depend on the processing

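The 10 members gave 180 log2 fold changes, and the 9 that were called kept their sign under every alternative. Of the 171 that were not called, 66 changed sign when some sample was left out, the largest of these being 0.18 in size, and 6 did so under another alternative, so no direction can be read from them. Values next to 0 changed sign for LPIN2 with DHA at 6 h (-0.00083 under the replicate block) and for GPAM with PCA at 6 h (0.00012 under the block, 0.0011 with DESeq2 size factors, 0.0021 by the DESeq2 Wald test and 0.00068 without the filter). LPIN1 was called lower in the pooled DHA effect at 24 h and with DHA + PCA at 24 h under every alternative, and the 6 members called with culture time remained 6 in every fit. Calls were gained as follows, and the cause was not tested. With DHA against Ctrl at 24 h, 1 member (LPIN1) was called in place of 0 under the replicate block (adjusted p = 0.0446 by edgeR) and the DESeq2 Wald test (adjusted p = 0.0377). In the pooled DHA effect at 24 h, 2 members were called in place of 1, LPCAT3 being added, under the replicate block (edgeR adjusted p = 0.00867), the DESeq2 Wald test (adjusted p = 0.0138) and the library series as a factor (edgeR adjusted p = 0.0179). In the pooled DHA effect at 6 h, 1 member (LPIN1) was called in place of 0 under the replicate block (edgeR adjusted p = 0.00204), the DESeq2 Wald test (adjusted p = 0.00301), no filter on low counts (edgeR adjusted p = 0.0340) and the library series (edgeR adjusted p = 0.0226). Leaving out each sample gave 0 to 1 members called with DHA + PRO at 24 h, 1 to 2 in the pooled effect at 24 h and 0 to 1 in the pooled effect at 6 h. There LPIN1 was called without Ctrl replicate 2, PRO replicate 2 or DHA + PRO replicate 1 (edgeR adjusted p = 0.0493, 0.0388 and 0.0271). The LPIN1 to LPIN2 log2 ratio stayed between -0.50 and -0.40 at 24 h and between -0.48 and -0.37 at 6 h when each sample was left out.

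The labels number the replicates 1 to 3 in each group, and the authors describe 3 independent cultures. Neither says that a number marks the same culture in every group. The column names of the count table carry, for each replicate number, the same further numbers in every group. Deviations of same-numbered samples correlated by more than 0.1 in 37 of 45 pairs at 6 h and 34 of 45 at 24 h. The fits of the report left the number out, but pairs at 0.1 or less do not show separate cultures. The mean correlation was 0.28 at 6 h and 0.16 at 24 h for the same number, against -0.14 and -0.080 for different numbers. Deviations were taken from each group's mean, so the values for different numbers follow from those for the same number and add nothing. At 6 h and 24 h, 16 and 17 of the 18 samples correlated best with their own number. The correlations and the repeated numbers in the column names hint that a number may mark a shared culture, in which case the values under the block apply. The replicate block raised the genes called from 146 to 367 in the pooled effect at 24 h, from 24 to 64 at 6 h, from 23 to 77 with DHA, from 47 to 135 with DHA + PRO and from 34 to 130 with DHA + PCA at 24 h. For the same 5 comparisons the DESeq2 Wald test called 222, 45, 48, 74 and 63 genes. Of the 31 other pathway genes the block called DGAT1, GPD1 and ETNK2 higher and GK lower at 24 h, and LPCAT1 higher at 6 h, in place of 0 (names chosen after their values were seen). At 6 h the 3 single comparisons with DHA had 2 genes each, and 18, 13 and 11 under the block.

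Depth limits AGPAT2 most, which received 15 to 259 reads per sample.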
